A study of Bos taurus with 8 samples.

Results

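The LIF receptor and JAK-STAT3 genes are the 2 receptor chains, the 3 kinases, the transcription factor and the 4 response genes through which a cell reads leukemia inhibitory factor (LIF). The 10 genes LIFR, IL6ST, JAK1, JAK2, TYK2, STAT3, SOCS3, CISH, PIM1 and BCL3 were chosen by gene name, and all 10 were among the 15267 genes of the deposited table. Their transcripts were measured by poly-A RNA sequencing of 8 pieces of filamentous bovine conceptuses, collected at day 15 after in vitro embryo development. In 4 samples, named FLI, the growth factors FGF2 and IGF1 and the cytokine LIF had been added together, and the other 4 samples are labelled as control. The labels give no breed, sex or animal of origin for either group, and they say neither which end of a conceptus was taken nor whether each piece came from another conceptus. The title of the study names slow-rate freezing of embryos, and the labels do not say whether these embryos had been frozen. In these samples LIF was not added alone, so an effect of LIF cannot be told apart from one of FGF2 or IGF1. The FLI samples are called 20, 3M, 4M and 50 and the control samples 10, 20, 3M and 4M, after their titles.

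LIF binds LIFR, which then pairs with IL6ST (gp130), the signal chain that the whole IL-6 cytokine family shares. The paired chains activate the bound Janus kinases JAK1, JAK2 and TYK2, which phosphorylate STAT3, and STAT3 enters the nucleus and switches on genes such as SOCS3. SOCS3 then restrains the pathway, CISH belongs to the same SOCS family, and PIM1 and BCL3 are tied to cell survival. In mice the pathway keeps embryonic stem cells undifferentiated and is needed in the uterus for implantation. RNA levels of these genes say nothing of the phosphorylation of their proteins, which was not analysed here.

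Levels are reads of a gene in CPM, scaled to a TMM-adjusted library total, and the libraries held 108851495 to 152570016 reads. The trophoblast keratin KRT8 was at 8995 to 12585 CPM in FLI and 6804 to 11352 CPM in control, and all 10 trophoblast markers were in the table. A pair of libraries stood apart from the rest in trophoblast and hypoblast markers or in HAND1 and ALAS2. Control 10 had the lowest level of 6 of the 10 trophoblast markers, among them GATA3 (11.7 CPM), CDX2 (6.92 CPM) and TFAP2C (24.4 CPM), and the highest level of 6 of the 8 hypoblast markers, such as HNF4A and SOX17. FLI 20 had the highest HAND1 (526 CPM) and the highest ALAS2 (66.6 CPM). All 10 trophoblast markers had higher means of log2(CPM + 0.5) in FLI (median log2 difference 0.80), though CDX2 and ELF5 did not have a higher mean CPM, and 0 of them passed limma. In a piece of conceptus, fewer cells of a type and less RNA per cell cannot be told apart.

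For none of the 10 genes was a difference between FLI and control detected beyond the spread between samples. The 9 with enough signal to be fitted had higher means of log2(CPM + 0.5) in FLI for 6 and lower for 3, the scale of all such counts here, with log2 differences of -0.53 to 0.29. Two-sided limma tests with Benjamini-Hochberg adjustment over 11897 genes called 0 of these 9, and 0 of all 11897 (0%), at an adjusted p under 0.05. At an unadjusted p under 0.05 limma had 0 of the 9, against 338 of the 11897 genes (2.84%). FLI and control samples overlapped for all 10 genes, against 172 tested genes with no overlap (1.45%). The median log2 difference of the 9 genes was 0.16, beside 0.00 over all tested genes. Of all 11897 tested genes, 6039 (50.8%) had a higher mean in FLI. None of the 10 genes has an adjusted p under 0.05 in the authors' deposited table, against 32 of 15267 (0.21%). Since separate conceptuses or cultures are not named, the p-values measure the spread between these samples only, which may be technical.

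**Figure D1:**
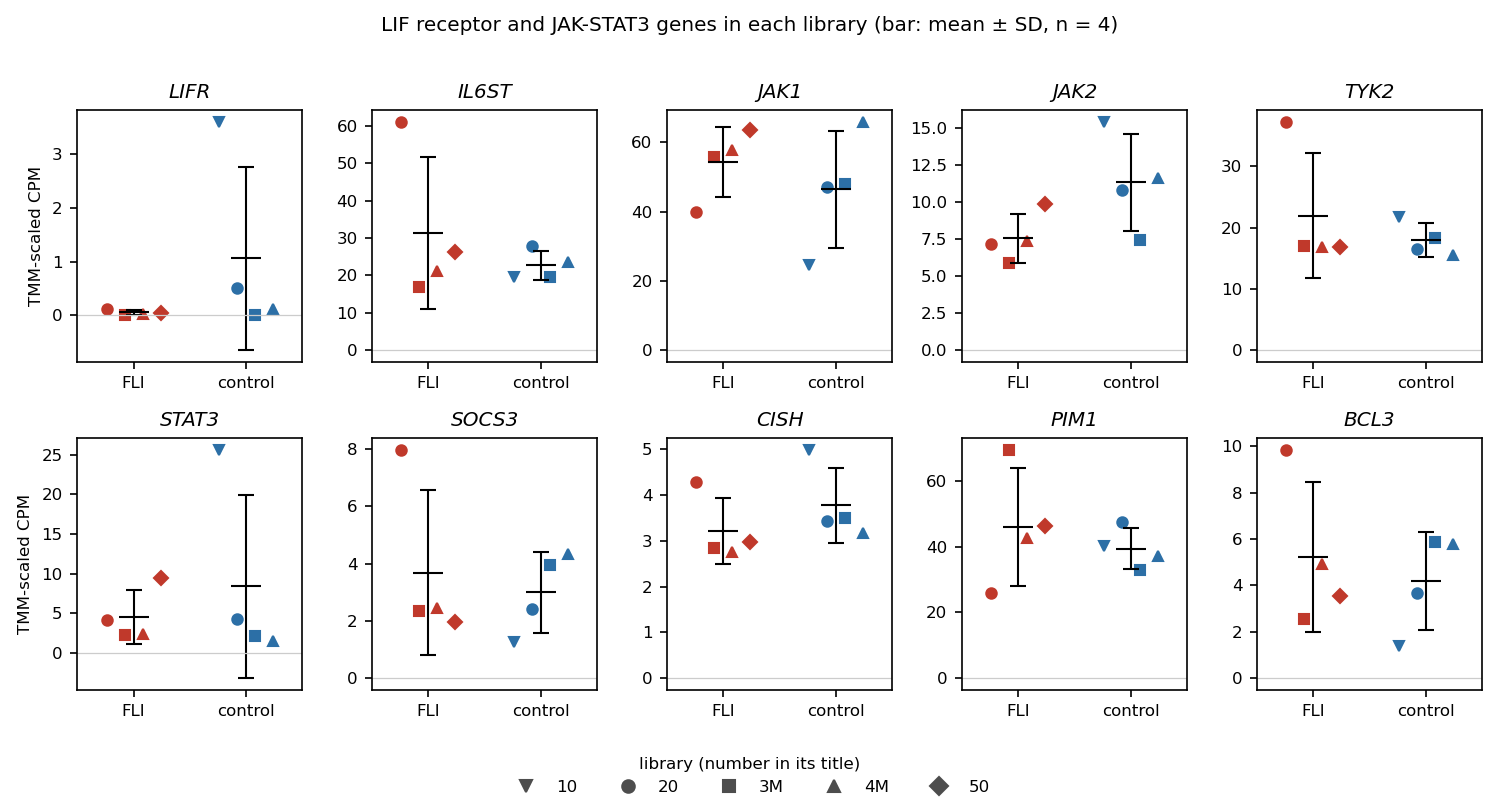
Level of each of the 10 genes in TMM-scaled CPM, with 1 point per library (FLI red, control blue, symbol by the number in the title) and black bars for mean ± SD (n = 4 per group). The groups overlap in every panel, and single libraries, control 10 for LIFR and STAT3 and FLI 20 for IL6ST, TYK2, SOCS3 and BCL3, lie far from the others.

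The receptor chains were present in very unequal amounts. LIFR (ENSBTAG00000010423, chromosome 20, 35840757 to 35949859 of ARS-UCD1.2, plus strand), the chain that binds LIF, was at 0.122 CPM in FLI 20, 0.0157 CPM in FLI 3M, 0.0343 CPM in FLI 4M and 0.0494 CPM in FLI 50. In the controls it was at 3.59 CPM in control 10, 0.504 CPM in control 20, 0.0149 CPM in control 3M and 0.120 CPM in control 4M. Only control 10 reached 1 CPM, and the 4 FLI values all lay within the range of the controls. These levels rest on 14, 2, 5 and 5 reads in FLI 20, 3M, 4M and 50, and on 473, 78, 2 and 16 reads in control 10, 20, 3M and 4M. The 2 reads in FLI 3M and in control 3M lie under the limit of 3 reads used for a level told from 0, which covers counting error only. FLI averaged 0.0554 ± 0.0467 CPM and control 1.06 ± 1.70 CPM (SD, n = 4 each). The difference of the mean log2(CPM + 0.5) was -0.95, with an exact two-sided permutation p of 0.257 over 70 assignments, where the smallest possible p is 0.0286. Without control 10 that difference was -0.31 (exact p = 0.514). The authors' deposited table lists LIFR with a log2 fold change of -2.74 and an adjusted p of 0.502. DESeq2 on the recovered reads gave -4.28 with an adjusted p of 0.26.

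IL6ST (ENSBTAG00000017745, chromosome 20, 23191785 to 23250938, plus strand), the shared signal chain, was at 61.1 CPM in FLI 20, 16.9 CPM in FLI 3M, 21.2 CPM in FLI 4M and 26.2 CPM in FLI 50. The controls were at 19.6 CPM in control 10, 27.8 CPM in control 20, 19.6 CPM in control 3M and 23.6 CPM in control 4M. FLI 20 was higher than any other library, and the other FLI samples spread around the control values. On the log2 scale FLI minus control was 0.29 (SE 0.36, 95% confidence interval -0.54 to 1.12, limma adjusted p = 0.97). Without FLI 20 it was -0.09.

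Levels of different genes were compared per kilobase of exon, with the exon length of the deposited table. IL6ST averaged 6.09 ± 3.21 CPM per kb over the 8 libraries and LIFR 0.147 ± 0.327 CPM per kb. In control 10, the library with the most LIFR, IL6ST was 4.64 times LIFR per kb, and in control 20 it was 47.1 times. The ratio was larger in the other 6 libraries, at 426 to 917 in FLI and at 168 in control 4M and 1123 in control 3M, where FLI 3M and control 3M rest on 2 LIFR reads each. Without control 10, LIFR averaged 0.0325 ± 0.0460 CPM per kb (SD, n = 7). The other chains that pair with IL6ST, from a list of receptors, gave the setting for this gap. IL11RA, the receptor of interleukin 11, was the most abundant of these chains, at 9.18 to 38.7 CPM per kb, and exceeded IL6R, the receptor of interleukin 6, in 8 of 8 libraries. IL6R was at 3.14 to 21.5 CPM per kb and exceeded IL6ST in 7 of 8 libraries, all but control 10. IL27RA, LIFR and CNTFR, the receptor of ciliary neurotrophic factor, formed a low group: IL27RA was at most 0.564 CPM per kb and CNTFR at most 0.316 CPM per kb. IL6ST and IL27RA did not overlap over the 8 libraries, while every other pair of neighbours in the order of means did. LIFR stood above CNTFR by its mean only, and exceeded CNTFR in 2 of 8 libraries. The receptor chains OSMR, LEPR, CSF3R and IL31RA were not analysed here.

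**Figure D2:**
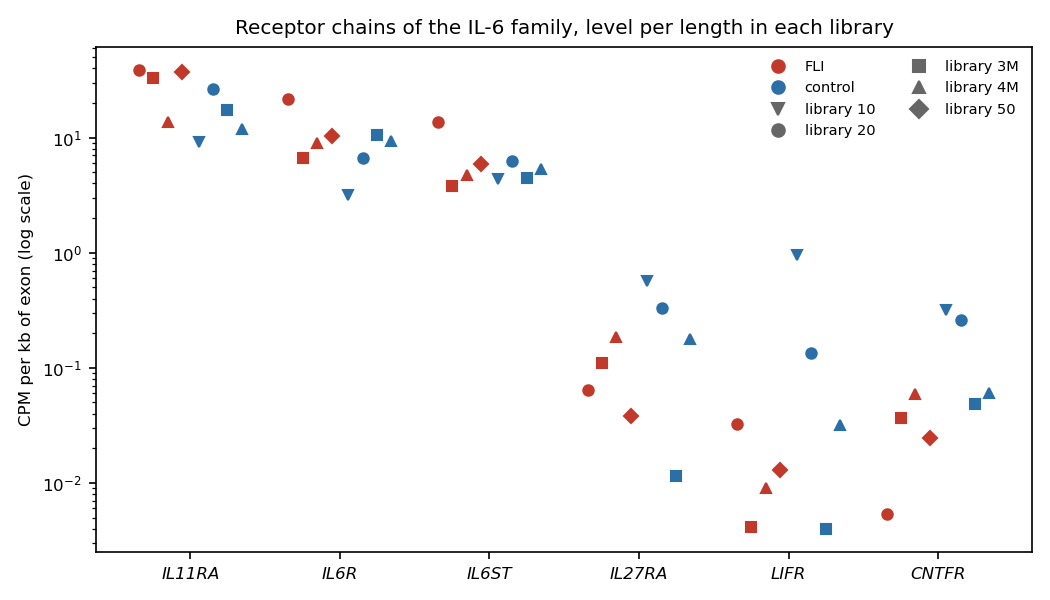
Level of 6 receptor chains in CPM per kb of exon on a log axis, with 1 point per library (FLI red and left, control blue and right, symbol by the number in the title). IL11RA, IL6R and IL6ST lie at 3.14 CPM per kb or more in all 8 libraries, and LIFR, IL27RA and CNTFR lie below 1 CPM per kb in all 8.

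Between the groups, IL11RA was at 61.7 ± 23.2 CPM in FLI and 32.8 ± 15.6 CPM in control (SD, n = 4 each), a log2 difference of 0.91 (95% confidence interval -0.04 to 1.86, limma adjusted p = 0.97). IL11RA was high in FLI 20, 3M and 50, at 66.8 to 78.1 CPM, while FLI 4M with 27.5 CPM lay inside the control range of 18.5 to 53.8 CPM. IL6R was at 58.9 ± 32.8 CPM in FLI and 36.9 ± 16.3 CPM in control, a log2 difference of 0.66 (-0.37 to 1.69, adjusted p = 0.97). CNTFR, which did not reach the level needed for limma, was at 0.0175 to 0.192 CPM in FLI and 0.157 to 1.03 CPM in control (exact two-sided permutation p = 0.0571). IL27RA was at 0.0987 to 0.481 CPM in FLI and 0.0298 to 1.45 CPM in control (exact p = 0.314). The authors' deposited table lists IL11RA with a log2 fold change of 1.08 (adjusted p of 0.233) and CNTFR with -2.43 (adjusted p of 0.292). It lists IL6R with 0.39 and IL27RA with -1.42.

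Of the ligands of the family, IL6 and IL27 could be fitted, and both had higher means in FLI without passing the test. IL6, the cytokine that signals through IL6R and IL6ST, was at 6.76, 2.84, 0.281 and 2.32 CPM in FLI 20, 3M, 4M and 50 and at 0.577, 1.82, 0.485 and 0.284 CPM in control 10, 20, 3M and 4M. In 3 of 4 FLI samples IL6 exceeded all controls, and FLI 4M was the lowest of all 8. FLI minus control came to a log2 difference of 1.198 (95% confidence interval -0.29 to 2.69, limma adjusted p = 0.97), and the authors' deposited table gives 2.01 with an adjusted p of 0.521. IL27, a subunit of interleukin 27, was at 1.73 ± 1.40 CPM in FLI and 0.684 ± 0.497 CPM in control, a log2 difference of 0.82 (adjusted p = 0.97). CTF1 and CNTF were under 1 CPM in all 8 libraries. Named after its values were seen, CLCF1, which signals through CNTFR with LIFR and IL6ST, was at 0.212 to 0.664 CPM in FLI and 0.262 to 4.09 CPM in control, with its highest level in control 10. Transcripts of LIF itself were not analysed here.

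The 3 kinases had distinct patterns. JAK1 (ENSBTAG00000003147, chromosome 3, 80444566 to 80584006, plus strand), the kinase that IL6ST depends on most, was at 39.9 CPM in FLI 20, 55.8 CPM in FLI 3M, 57.8 CPM in FLI 4M and 63.5 CPM in FLI 50. The controls were at 24.7 CPM in control 10, 47.0 CPM in control 20, 48.0 CPM in control 3M and 65.9 CPM in control 4M. Control 10 had the lowest JAK1 of all 8 libraries and control 4M the highest, so FLI lay inside the control range. The log2 difference was 0.28 (SE 0.29, 95% confidence interval -0.38 to 0.95, limma adjusted p = 0.97), and without control 10 it was 0.012.

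JAK2 (ENSBTAG00000012047, chromosome 8, 39381277 to 39499024, minus strand), better known from erythropoietin, growth hormone and prolactin receptors, was at 7.17 CPM in FLI 20, 5.89 CPM in FLI 3M, 7.35 CPM in FLI 4M and 9.84 CPM in FLI 50. It was at 15.4 CPM in control 10, 10.8 CPM in control 20, 7.46 CPM in control 3M and 11.7 CPM in control 4M. None of the FLI samples reached the control median, and the groups overlapped through FLI 50, which exceeded control 3M. FLI averaged 7.56 ± 1.65 CPM and control 11.3 ± 3.27 CPM (SD, n = 4 each). JAK2 had the smallest p of the 9 fitted genes, with a log2 difference of -0.53 (SE 0.25, 95% confidence interval -1.10 to 0.03, limma adjusted p = 0.97; exact permutation p = 0.0571). Its sign was negative under all 20 alternative settings run, with log2 differences of -0.71 to -0.36. Those settings reuse the same 8 libraries, so a constant sign is no independent support.

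TYK2 (ENSBTAG00000011698, chromosome 7, 14876119 to 14905841, minus strand), the kinase first known from interferon receptors, was at 37.3 CPM in FLI 20 and at 16.9, 16.8 and 16.8 CPM in FLI 3M, 4M and 50. The controls were at 21.8, 16.6, 18.3 and 15.5 CPM in control 10, 20, 3M and 4M. Apart from FLI 20, all libraries lay within 15.5 to 21.8 CPM. On the log2 scale FLI minus control was 0.20 (SE 0.28, adjusted p = 0.97 in limma), and without FLI 20 it was -0.08. Per kb of exon, JAK1 was the most abundant kinase, at 9.91 ± 2.67 CPM per kb over the 8 libraries, before TYK2 at 3.44 ± 1.25 and JAK2 at 2.26 ± 0.751 CPM per kb. JAK1 exceeded JAK2 by 4.58 to 7.79 times in FLI and by 1.32 to 5.29 times in control, with the smallest ratio in control 10.

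STAT3 (ENSBTAG00000021523, chromosome 19, 42417949 to 42491771, minus strand), the transcription factor at the end of this chain, was at 4.12 CPM in FLI 20, 2.25 CPM in FLI 3M, 2.43 CPM in FLI 4M and 9.51 CPM in FLI 50. In the controls it was at 25.6 CPM in control 10, 4.27 CPM in control 20, 2.09 CPM in control 3M and 1.56 CPM in control 4M. Control 10 had by far the most STAT3, followed by FLI 50, and the remaining 6 libraries lay between 1.56 and 4.27 CPM. FLI averaged 4.58 ± 3.39 CPM and control 8.39 ± 11.6 CPM (SD, n = 4 each). FLI minus control came to a log2 difference of -0.21 with a 95% confidence interval of -2.03 to 1.61 (limma adjusted p = 0.981), the widest interval of the 9 genes. Without control 10 it was 0.58.

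STAT5B, which lies next to STAT5A and STAT3 on chromosome 19 (42319170 to 42357910), was at 3.34 ± 1.11 CPM in FLI and 7.08 ± 7.18 CPM in control, with 17.2 CPM in control 10 (log2 difference -0.49, limma adjusted p = 0.97). STAT2, known from interferon signalling, was at 25.0 ± 3.57 CPM in FLI and 23.6 ± 2.31 CPM in control (log2 difference 0.07, 95% confidence interval -0.26 to 0.40). Of the 4 fitted genes among the other JAKs and STATs, 1 had a higher and 3 a lower mean in FLI, and 0 passed. Control 10 thus had the highest level of LIFR, STAT3, STAT5B and JAK2 together with the hypoblast and trophoblast marker levels given above, and the part of tissue content in these levels was not tested. The summed hypoblast markers were at 449 CPM in control 10, against 134 to 211 CPM in FLI and 121 to 286 CPM in the other controls.

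**Figure D3:**
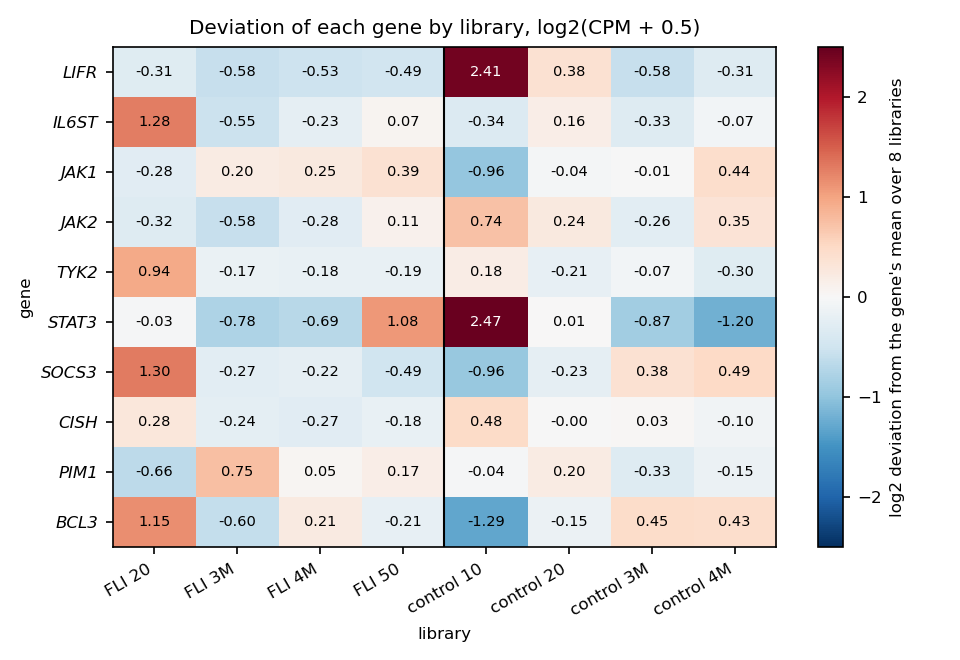
Deviation of each gene (rows) in each library (columns, FLI left of the line and control right of it) from the mean of that gene over the 8 libraries, on the scale log2(CPM + 0.5). LIFR and STAT3 stand at 2.41 and 2.47 in control 10, where SOCS3 and BCL3 stand at -0.96 and -1.29, and FLI 20 has the highest deviation of IL6ST, TYK2, SOCS3 and BCL3.

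SOCS3 is the classical early target of STAT3, and its protein binds IL6ST and the kinases and shuts the signal off. SOCS3 (ENSBTAG00000008441, chromosome 19, 53840159 to 53840858, plus strand) was at 7.98 CPM in FLI 20, 2.34 CPM in FLI 3M, 2.44 CPM in FLI 4M and 1.94 CPM in FLI 50. The controls were at 1.27 CPM in control 10, 2.42 CPM in control 20, 3.96 CPM in control 3M and 4.32 CPM in control 4M. FLI 20 was the highest of all 8 libraries and control 10 the lowest, while the other FLI samples lay below control 3M and control 4M. FLI averaged 3.68 ± 2.88 CPM and control 2.99 ± 1.41 CPM (SD, n = 4 each). The log2 difference was 0.16 (SE 0.47, 95% confidence interval -0.92 to 1.24, limma adjusted p = 0.975), and its sign turned without control 10 (-0.13) and without FLI 20 (-0.25). The deposited exon length of SOCS3 is 700 bases.

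CISH (ENSBTAG00000022622, chromosome 22, 49749512 to 49755490, plus strand), a SOCS family member best known as a target of STAT5, was at 4.28, 2.83, 2.75 and 2.98 CPM in FLI 20, 3M, 4M and 50. It was at 4.99, 3.43, 3.51 and 3.18 CPM in control 10, 20, 3M and 4M. The groups overlapped: FLI 20 exceeded every control but control 10, while FLI 3M, 4M and 50 lay below all controls by a narrow margin. On the log2 scale FLI minus control was -0.20 (SE 0.22, 95% confidence interval -0.70 to 0.29, limma adjusted p = 0.97). This difference was negative under all 20 alternative settings run on the same libraries (-0.33 to -0.05).

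PIM1 (ENSBTAG00000000396, chromosome 23, 11066555 to 11071948, plus strand), a serine/threonine kinase that promotes survival, was at 26.0, 69.7, 42.7 and 46.5 CPM in FLI 20, 3M, 4M and 50. The controls were at 40.2, 47.6, 32.8 and 37.1 CPM in control 10, 20, 3M and 4M. The highest and the lowest value of all 8 libraries were both in FLI. FLI minus control came to a log2 difference of 0.15 (SE 0.28, 95% confidence interval -0.48 to 0.79, limma adjusted p = 0.973), and without FLI 3M it was -0.07. PIM1 was the most abundant of the 10 genes per kb of exon, at 15.5 ± 4.71 CPM per kb, and exceeded JAK1 in 8 of 8 libraries.

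BCL3 (ENSBTAG00000009493, chromosome 18, 52519991 to 52529588, plus strand), a nuclear IκB family protein that modulates NF-κB target genes, was at 9.86, 2.56, 4.90 and 3.52 CPM in FLI 20, 3M, 4M and 50. It was at 1.40, 3.69, 5.87 and 5.79 CPM in control 10, 20, 3M and 4M. As for SOCS3, FLI 20 was the highest library and control 10 the lowest. Over the 10 genes, FLI 20 held the highest level of 4 and control 10 that of another 4, beside 20.1% and 23.9% of all tested genes. The log2 difference was 0.28 (SE 0.49, 95% confidence interval -0.84 to 1.40, limma adjusted p = 0.973), and it was -0.11 without control 10 and -0.06 without FLI 20.

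**Figure D4:**
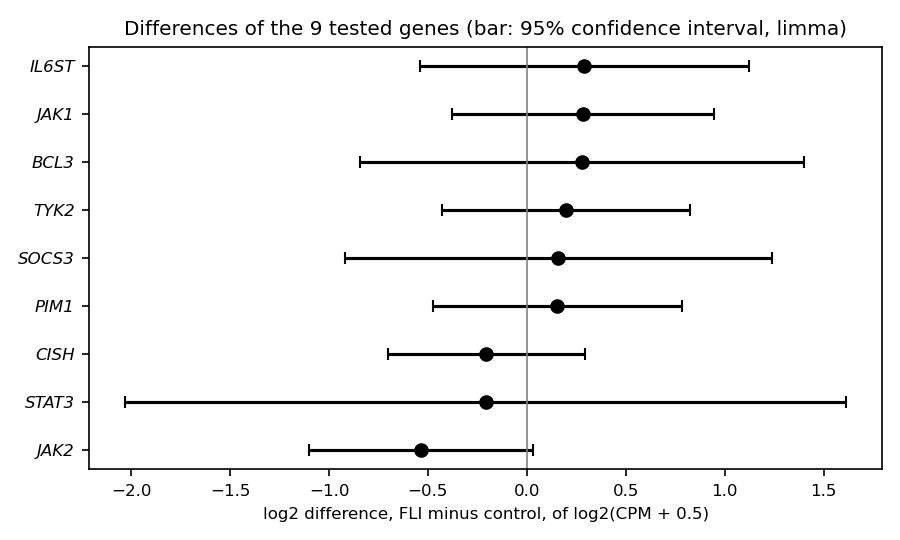
Log2 difference between FLI and control in log2(CPM + 0.5) for the 9 fitted genes, with bars for the 95% confidence interval of limma. All 9 intervals include 0, JAK2 comes closest to leaving it out (-1.10 to 0.03), and STAT3 has the widest interval.

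Per kb of exon, the mean levels of the 10 genes over the 8 libraries ran from PIM1 through JAK1, IL6ST, SOCS3, TYK2, BCL3, JAK2, CISH and STAT3 to LIFR. The ranges of all neighbours in this order overlapped over the 8 libraries. Compared within each library, the first and the last step held in 8 of 8, and the other steps held in 4 to 7. BCL3 and JAK2 were nearly level, at 2.28 ± 1.26 and 2.26 ± 0.751 CPM per kb, while CISH and STAT3, at 1.41 ± 0.312 and 1.39 ± 1.75 CPM per kb, were close only through control 10. Without that library CISH averaged 1.32 ± 0.211 and STAT3 0.806 ± 0.589 CPM per kb (SD, n = 7), and CISH was higher in 6 of all 8 libraries. STAT3 exceeded LIFR in 8 of 8 libraries, and the ratio of their means was 9.47, or 24.8 without control 10.

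Of the 45 pairs of these genes, SOCS3 and BCL3 varied most alike over the 8 libraries, with Pearson's r = 0.929 (exact permutation p = 0.00198, adjusted p = 0.0508 over the 45 pairs) and Spearman's rho = 0.952 (exact permutation p = 0.00114, adjusted p = 0.0513). Leaving out FLI 20 and control 10, the libraries farthest from the median of SOCS3, gave r = 0.786 over 6 libraries. STAT3 and SOCS3, the factor and its classical target, had r = -0.581 (exact permutation p = 0.136, adjusted p = 0.291) and rho = -0.667 (exact permutation p = 0.0831, adjusted p = 0.592) over the 8 libraries, where r was 0.175 over 6 libraries without FLI 50 and control 10, the farthest from the median of STAT3, and -0.746 over 6 libraries without FLI 20 and control 10. JAK1 and CISH had r = -0.917 (exact permutation p = 0.00226, adjusted p = 0.0508) and rho = -0.762 (exact permutation p = 0.0368, adjusted p = 0.515), and r was -0.585 over 6 libraries without FLI 20 and control 10. None of the 45 pairs had an adjusted p under 0.05.

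Among 10902 fitted genes with a symbol, those most like SOCS3 over the 8 libraries were FERMT1 (r = 0.976), an integrin activator of epithelia, STAR (r = 0.957), which moves cholesterol into mitochondria for steroid synthesis, and FGFR2 (r = 0.954), a receptor of FGFs. These r values describe likeness over the same 8 libraries and carry no test. FERMT1 was at 51.7 CPM in FLI 20 and 7.39 to 9.92 CPM in FLI 3M, 4M and 50, against 3.18 CPM in control 10 and 5.73 to 20.1 CPM in the other controls. FGFR2 was at 94.7 CPM in FLI 20 and 8.65 CPM in control 10. Without FLI 20 the r values were 0.943, 0.903 and 0.891 over 7 libraries. The genes most like LIFR, of 10903 compared, were PNRC1 (r = 0.987), COL27A1 (r = 0.985) and PIMREG (r = 0.984). PNRC1, a coregulator of nuclear receptors, was at 35.2 CPM in control 10, against 8.65 to 10.8 CPM in FLI and 7.64 to 14.6 CPM in the other controls. Without control 10 these r values were 0.927, 0.864 and 0.838.

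In the wider pathway no gene passed the test. Of the 89 further symbols in the pathway lists, 74 were analysed, and of the 61 that were fitted 29 had a higher and 32 a lower mean of log2(CPM + 0.5) in FLI, with a median log2 difference of -0.02. Limma called 0 of the 61, and 1 of them, SOS1, had an unadjusted p under 0.05 and groups that did not overlap. That is 1.64% of the 61, beside 2.84% and 1.45% of all tested genes. A higher mean in FLI was found for 47.5% of the 61, beside 50.8% of all tested genes.

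SOS1, the exchange factor that passes the receptor signal to RAS, was at 68.1, 41.9, 40.8 and 50.7 CPM in FLI 20, 3M, 4M and 50, against 29.6, 31.1, 35.5 and 39.9 CPM in control 10, 20, 3M and 4M. All 4 FLI samples exceeded all 4 controls, by a narrow margin between FLI 4M and control 4M. On the log2 scale FLI minus control was 0.54 (SE 0.19, 95% confidence interval 0.11 to 0.97, limma adjusted p = 0.97; exact permutation p = 0.0286, the smallest possible), so it did not pass. Among the 11 fitted adaptors to the MAPK and PI3K branches, 7 were higher and 4 lower with a median log2 difference of 0.15, and IRS1, the docking protein of insulin and IGF1 receptors, was at 13.2 ± 7.74 CPM in FLI and 7.35 ± 3.01 CPM in control (log2 difference 0.72, adjusted p = 0.97).

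Of 17 other restraints of JAK-STAT signalling, 7 were higher and 10 lower in FLI, with a median log2 difference of -0.02. SOCS6, a SOCS protein tied to receptor kinases, was at 6.85 ± 2.03 CPM in FLI and 9.67 ± 2.12 CPM in control (log2 difference -0.49, limma adjusted p = 0.97). USP18, which removes ISG15 and restrains interferon receptors, was at 12.5 ± 2.52 CPM in FLI and 8.94 ± 2.99 CPM in control (log2 difference 0.50, adjusted p = 0.97). PTPN6, the phosphatase SHP1, was named after its values were seen: it was at 55.2 CPM in FLI 20, against 5.13 to 8.12 CPM in FLI 3M, 4M and 50 and 4.52 to 9.01 CPM in control.

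Of 25 fitted genes reported as STAT3 targets in other systems, 10 were higher and 15 lower in FLI. The share higher was 40%, beside 50.8% of all tested genes, and the median log2 difference was -0.16. The smallest p values belonged to a pair of survival genes with lower means in FLI. BCL2L1, which encodes BCL-xL, was at 65.3 ± 8.15 CPM in FLI and 90.7 ± 25.7 CPM in control, a log2 difference of -0.44 (95% confidence interval -0.89 to 0.00, limma adjusted p = 0.97; exact permutation p = 0.0571). MCL1, its relative, was at 186 ± 23.8 CPM in FLI and 233 ± 36.6 CPM in control, a log2 difference of -0.32 (-0.65 to 0.02, limma adjusted p = 0.97; exact permutation p = 0.0571).

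**Figure D5:**
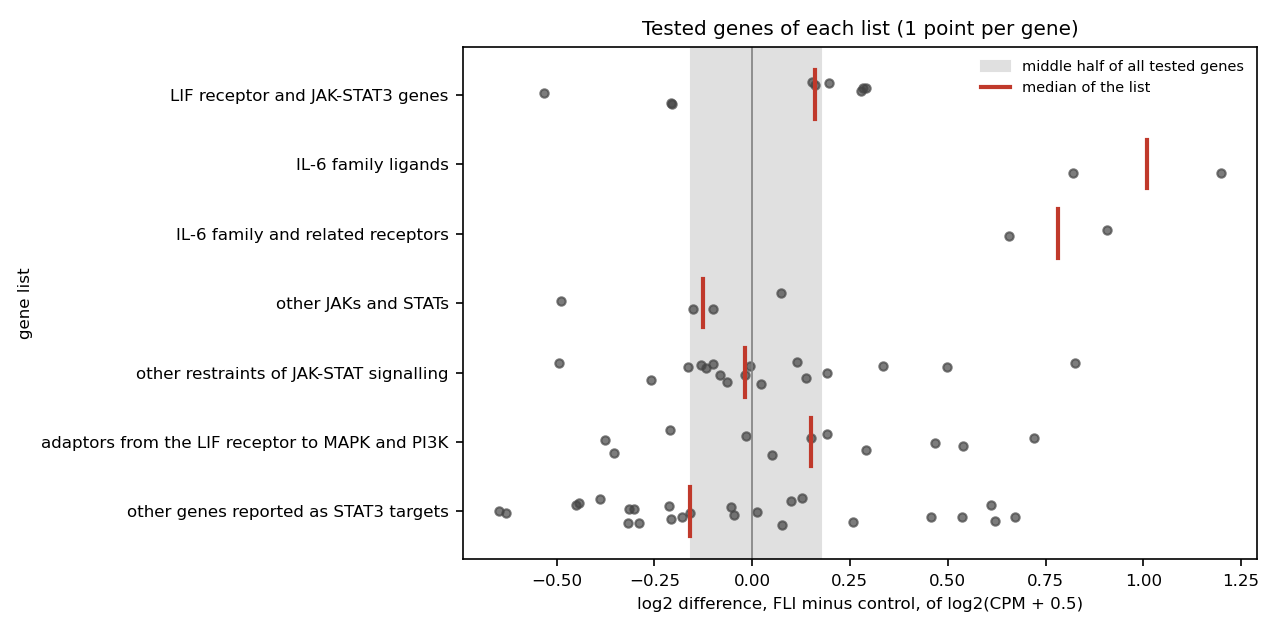
Log2 difference between FLI and control in log2(CPM + 0.5) for every fitted gene of each list (1 point per gene), with a red line for the median of the list and a grey band between the lower and upper quartile of all 11897 tested genes. The band describes single genes and is no range for a median. The LIF receptor and JAK-STAT3 genes have a median of 0.16 and the reported STAT3 targets one of -0.16, and the points of most lists lie on both sides of 0.

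Markers of other cells were read beside the libraries that stood apart. Of 8 leukocyte markers, LCP1 and CD14 were analysed, and their sum was 16.0 CPM in FLI 20, against 2.76 to 4.90 CPM in FLI 3M, 4M and 50 and 0.646 to 4.66 CPM in control. PTPRC, CD3E, CSF1R, LYZ, CD52 and TYROBP, which define leukocytes more closely, were not analysed here. The summed mesoderm markers were at 529 CPM in FLI 20, nearly all of it HAND1, against 11.6 to 48.6 CPM in FLI 3M, 4M and 50 and 4.78 to 51.7 CPM in control. HAND2 was also highest in FLI 20, at 0.542 CPM against 0.0150 to 0.284 CPM in the other libraries. Some other mesoderm markers were not high there. TBXT was at 0 in FLI 20, FLI 50 and control 3M. EOMES was at 0 in FLI 20 and at 0.0197 CPM in FLI 50. KDR was at 0.210 CPM in FLI 20, against 15.9 CPM in control 10. FLI 20 was also the library with the most IL6ST, TYK2, SOCS3 and BCL3, and the part of these markers in those levels was not tested. The epiblast markers summed to 130 to 280 CPM in FLI and 164 to 493 CPM in control. These sums hide low single markers in FLI 20 and FLI 50. POU5F1 was at 1.42 and 1.01 CPM in them, against 4.80 to 32.7 CPM in the other libraries. NANOG was at 0.0175 and 0.0592 CPM in them, against 0.903 to 5.66 CPM elsewhere. LIN28A was lowest in FLI 20 (38.7 CPM), but in FLI 50 (83.7 CPM) it lay inside the control range. The 5 endometrium markers analysed summed to 9.24 to 29.5 CPM in FLI and 9.59 to 62.7 CPM in control. The highest sum was in control 10, where CST6 made up 59.1 CPM. The 5 markers did not go 1 way in control 10. CST6, LTF (1.91 CPM) and SERPINA14 (1.24 CPM) were highest there, while PGR (0.220 CPM) and FOXL2 (0.182 CPM) were lowest.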

How the data were processed

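RNA was measured in 8 pieces of conceptuses, 4 FLI and 4 control. Per the labels' protocols, poly-A selected stranded libraries were made. Build ARS-UCD1.2 and the tools HISAT2, featureCounts, edgeR and FastQC come from the submitters' processing notes; their versions and the strand setting were not given in sources used here. The deposited signal values are CPM of TMM-scaled library totals. The authors' deposited table also holds their log2 fold changes, a likelihood ratio score, p-values and exon lengths.

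The deposited CPM were whole multiples of 1 read (0.00646 to 0.00987 CPM) for 100% of values, within a tolerance of 0.001 reads, and the recovered read counts were used for the depth and for count tests as alternatives. Main tests were two-sided in limma 3.58.1 (R 4.3.3) on log2(CPM + 0.5), which understates changes of low genes, for genes of at least 1 CPM in at least 4 samples, with Benjamini-Hochberg adjustment and a threshold of 0.05. LIFR was below that filter and was compared by an exact permutation test. Alternatives used edgeR 4.0.16 and DESeq2 1.42.0 on the recovered counts, other pseudocounts, no filter, library size alone, samples left out and subsets by title. Limits that a count sets (3 reads) cover counting error only.

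Samples titled 20, 3M and 4M occur in both groups. The correlations of their deviations from the group means were 0.133, 0.351 and 0.359, each over 0.1, so a fit with the number as a block on these 6 samples was run; 5 pairs that share only the last character of the title had correlations of 0.155 to 0.312, so number and last character cannot be told apart. The labels do not say what the numbers mean.

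Genes named were the 10 members, the 2 genes of smallest p in each pathway list, all receptors listed, and the 3 genes most like LIFR and SOCS3. CLCF1, CTF1, CNTF and PTPN6 lie outside that rule and were added after their values were seen, as were the markers named. The members and the lists of ligands, receptors, restraints, adaptors, targets and cell markers were chosen with earlier results of these data known. No sequences are shown, since none were at hand for these genes. Results of some listed genes are not reported here.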

Additional observations from a re-analysis of the deposited data

Results flagged for a closer look

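Within a group of 4, a sample was marked where its gap to the nearest other sample, divided by the range of the group, exceeded Dixon's 95% critical value. Of 32 groups examined, 5 were marked. The nominal rate of about 1 in 20 holds for independent normal values, while these groups share the same 8 libraries. The share marked over all genes was not computed. All 5 marks fell in control 10 or FLI 20, which held the highest level of 23.9% and 20.1% of all tested genes. The marks are therefore not read as a result about these genes. In control, LIFR was at 3.59 CPM in control 10 (next 0.504 CPM) and STAT3 at 25.6 CPM in control 10 (next 4.27 CPM). In FLI, 3 genes were marked in FLI 20: TYK2 at 37.3 CPM (next 16.9 CPM), SOCS3 at 7.98 CPM (next 2.44 CPM) and CISH at 4.28 CPM (next 2.98 CPM).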

How the results depend on the processing

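No fitted member was called under any of the 20 alternatives run. DESeq2 gave no p-value for STAT3 (log2 difference -0.883), so STAT3 has no test result there. Of the 20 alternatives, leaving out both control 10 and FLI 20, and the 6 samples without the block, were chosen after seeing the data. The number of genes called over the whole table was 0 in limma, 33 with edgeR's likelihood ratio test with robust weights and 14 with DESeq2; edgeR's quasi-likelihood test called 0, with 376 genes at an unadjusted p under 0.05. Leaving out 1 replicate gave 0 to 1 genes called, the 1 without control 3M. JAK2 and CISH were lower in FLI under all 20, which reuse the same libraries. The share of all tested genes that kept their sign was not computed. LIFR, -0.95 in limma with no filter, was -2.744 with edgeR's robust weights and -4.279 with DESeq2 (adjusted p = 0.26). JAK1 was 0.012 without control 10. On leaving out 1 sample, log2 differences that turned sign ranged from -0.087 (without FLI 20) to 0.521 for IL6ST, -0.084 (without FLI 20) to 0.293 for TYK2, -0.643 to 0.58 (without control 10; 0.017 without FLI 3M) for STAT3, -0.248 (without FLI 20; -0.132 without control 10) to 0.35 for SOCS3, -0.069 (without FLI 3M) to 0.399 for PIM1, and -0.107 (without control 10; -0.061 without FLI 20) to 0.525 for BCL3. Leaving out both control 10 and FLI 20 gave IL6ST -0.15, STAT3 0.56, SOCS3 -0.54 and BCL3 -0.45. With the replicate block JAK1 was -0.07 and STAT3 0.185, as in the same 6 samples with no block. Neither fit called a gene, so the calls cannot show what the block does. At an unadjusted limma p under 0.05 there were 809 of 11888 genes with the block and 200 without it. JAK2, at -0.503 in both fits, had an unadjusted limma p of 0.0364 with the block and 0.0714 without it. Among samples with titles ending in 0, PIM1 was -0.33, IL6ST 0.765, STAT3 -0.716, SOCS3 1.001 and BCL3 1.195; among those ending in M, IL6ST was -0.18, STAT3 0.30, SOCS3 -0.68 and BCL3 -0.64. With edgeR's robust weights STAT3 was 0.155 and SOCS3 -0.032. The cause of these turns was not tested. With 4 samples a group, the widest interval, that of STAT3, spanned -2.03 to 1.61; LIFR rested on 2 to 14 reads in FLI, which limits its precision.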
